A study of Mus musculus with 6 samples.

Results

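Mouse genes filed under a provisional name, a Gm number for a predicted gene model or a clone name ending in Rik, are described here in C2C12 myoblasts grown with or without a quinolinone compound. Members were chosen from the counts: a Gm or Rik name in the deposited table, each identifier used once, and a mean of at least 50 counts over the 6 libraries. Of 3171 Gm and Rik genes in the table, 911 had a count in any library, 755 of these stayed below the floor, and 6 at or above it were left out by name (Gm9817, Gm9747, Gm9947, A930016O22Rik, D030025P21Rik and D830015G02Rik). The 150 members, 59 with a Gm and 91 with a Rik name, were taken from 22753 gene identifiers, of which 942 with other names also reached the floor. The values that chose them also include their mean level, so that level is given as a description. All 150 entered the test across genes, and none had a count of 0 in any library.

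C2C12 is an established mouse myoblast line that divides in rich medium and can fuse into muscle fibres or take on bone-like features. All 6 samples were C2C12 cells in 12-well plates in DMEM with 10% FBS: 3 were grown for 2 days with 1% DMSO, the solvent, and 3 for 2 days with 10 µM of a screening hit, here called the compound, which is a 6,8-dimethyl-quinolin-2(1H)-one that carries a 4-phenyl-1H-imidazol-5-yl group at position 3. The comparison asks what this hit changes in the cells' RNA. Nothing in the labels tells whether each sample came from its own culture, so the p-values reflect the spread among the 6 samples and that spread could be technical. The compound was used at 1 dose and 1 time, so a dose or time course cannot be read from these data.

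Provisional names are given to transcripts that were found by cDNA cloning or gene prediction before anything was known of their function. Many were later shown to be natural antisense transcripts, RNAs copied from the strand opposite a known gene, and others turned out to be ordinary protein-coding genes that received a proper name. Poly-A libraries that keep strand assign a read to a strand. Where strand is ignored or set the other way round, reads of a known gene can be filed under the transcript that faces it. The kit named in the labels is TruSeq RNA v2, which in its standard form does not keep strand, yet the labels also call the libraries stranded, so it is not settled whether the reads keep strand. The strand setting of the counting is not given in the sources used here. A count under a member is therefore a count of reads filed under that name. In most pairs the counts filed under the member and under the gene on the opposite strand differed widely, as given below. Which gene of a pair the reads came from was not tested and is not given in the labels.

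The pairs can be seen in the sequences of the member with the highest count, the member with the largest rise, both of the largest falls and a member wholly inside a known exon. For each pair, a 30-base window of a known gene's coding exon is shown with the member's own sequence from the opposite strand (GENCODE M21 transcripts, GRCm38, the assembly also called mm10). Each is written 5′ to 3′, and the 6 capitals mark bases that pair with each other, the first of the member's window with the last of the known gene's. The pairing runs on beyond each window, over shared stretches of 87 to 555 bases. The windows lie at chr2:174345458-174345487 (Gm20721 on the minus strand), chr6:34872814-34872843 (3110062M04Rik, minus), chr17:34211938-34211967 (Gm15821, minus), chr2:91945795-91945824 (Gm9821, plus) and chr10:52358796-52358825 (Gm26741, plus).
Gm20721: ATGTTGtagctgctgctggccaccacgaag
Gnas: cttcgtggtggccagcagcagctaCAACAT
3110062M04Rik: GGGACGaacactgtgaggaccagggctcca
Tmem140: tggagccctggtcctcacagtgttCGTCCC
Gm15821: TCGGCCccaaagcttcgcacagtctgcagc
Tap2: gctgcagactgtgcgaagctttggGGCCGA
Gm9821: TGCCCTgcaggggagcggcgtcgagccttg
Dgkz: caaggctcgacgccgctcccctgcAGGGCA
Gm26741: AGTCAAcactttgaccagtcttggcatgaa
Gopc: ttcatgccaagactggtcaaagtgTTGACT
In each pair the member's sequence is the reverse complement of the known gene's. A read of 30 bases from these windows fits both genes of its pair, and only the strand of the read separates them.

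Total counts were 566348, 597112 and 952813 in DMSO replicates 1 to 3 and 493406, 515296 and 542649 in compound replicates 1 to 3, over the genes of the table. DMSO replicate 3 was thus the deepest library, and counts over the listed genes are not the full depth of a library. Of the myoblast and muscle markers, all 12 had counts, but few: the highest mean was 50 (Des, the muscle intermediate filament desmin) and Myod1, the myogenic master regulator, had 7.5. Their summed counts were 178, 151 and 237 with DMSO and 139, 139 and 113 with the compound. Summed osteoblast markers had 23 to 64 counts per library with 3 of 6 at 0 in all libraries, adipocyte markers 0 to 2, endothelial markers 0 to 3 and immune markers 3 to 12. The muscle label therefore rested on low counts, and the part of these markers in the results below was not tested.

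Members took up 17.96% (95% exact Clopper-Pearson interval 17.9 to 18.1, counting error only), 18.6% and 20.3% of all counts in the 3 DMSO libraries and 16.4%, 16.8% and 16.4% in the 3 compound libraries. Every compound library lay below every DMSO library. Gm20721 alone held 8.23%, 8.52% and 8.96% with DMSO and 8.11%, 8.22% and 8.27% with the compound, which overlap in part. Over all 6 libraries it was 46.8% of the members' counts, and the 10 members with most counts held 64.2%. The other 149 members together held 9.73%, 10.0368% and 11.3% with DMSO and 8.34%, 8.62% and 8.08% with the compound. These lower shares depend on which genes were left out by name: with every Gm and Rik gene included, the shares were 21.0443%, 21.6% and 23.7% with DMSO and 22.3%, 22.9% and 22.2% with the compound, and the groups overlapped. No test was made on a sum over chosen members.

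**Figure D1:**
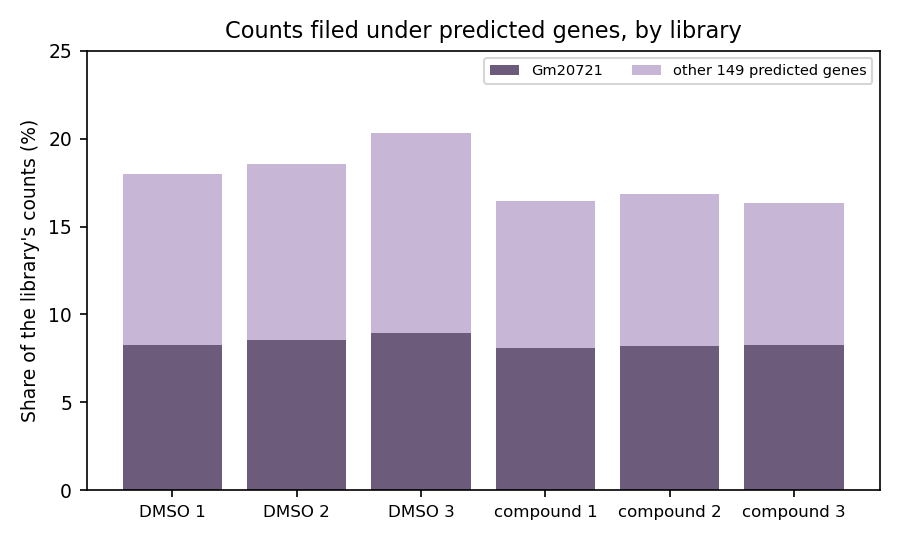
Share of each library's counts (percent) filed under the members, split into Gm20721 and the other 149 members, for the 3 DMSO and 3 compound libraries. The Gm20721 share stays between 8.11% and 8.96%, while the share of the other members is 9.73% to 11.3% with DMSO and 8.08% to 8.62% with the compound.

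Nearly all members lay across a known gene. GENCODE M21 held 144 of the 150 (132 by identifier and 12 by name and place). In 139 the member's exons overlapped exons of a gene on the other strand, 3 lay only inside or across gene bodies, 2 overlapped no gene, and 6 were not in M21. Among members found by identifier, 127 of 132 (96.2%) had an exon facing an opposite exon. The same was true of 236 of 698 Gm and Rik genes with a count below the floor (33.8%), of 145 of 1874 with no count (7.74%), of 832 of 939 genes with other names at or above the floor (88.6%) and of 5348 of 21854 genes in the whole table (24.5%). An opposite exon was thus common among well-counted genes of either kind of name. The shared stretch ranged from 39 to 3702 bases with a median of 463, and covered 2.73% to 100% of the member's exons with a median of 27.3%. In 10 members every exon base was shared.

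Each of the 131 members with a named gene on the opposite strand was classed by the part of that gene with most shared bases. This was the coding part in 56, the 5′ UTR in 37, the 3′ UTR in 28 and other exon sequence in 10. Members can share bases with other parts too: 3110062M04Rik, classed by 3′ UTR, also shares 555 coding bases with Tmem140. By bases, 38.4% of the shared stretches was coding, 27.7% 3′ UTR and 25.9% 5′ UTR. Of members facing mainly coding sequence 0 were higher and 13 lower with the compound, of those facing a 5′ UTR 2 were higher and 9 lower, of those facing a 3′ UTR 4 and 3, and of the remaining 10 members 1 and 2. Over all tested genes, 7.5% were called higher and 10.5% lower (adjusted p under 0.05 in edgeR's test, described below). The differences between these classes were not tested. Although the table files all 150 as protein-coding, M21 calls 84 protein-coding, 36 antisense and 12 TEC (a class that awaits experimental evidence), with 12 in other classes. In M21, 13 of the members carry other names, among them Cyren (3110062M04Rik), Rtraf (2700060E02Rik), Rmc1 (3110002H16Rik), Vps35l (9030624J02Rik), Perm1 (2310042D19Rik) and Prr33 (Gm14492).

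The known genes themselves had few counts. Of the 131 pairs of a member and a known gene, in which Acin1 stands 2 times because it faces 2 members, 128 had a row for the known gene in the table. Its mean count was under 5 for 64 of them, 0 for 5 (Kti12, Supt20, Sdhaf4, Smim13 and Emb) and at least 50 for 24. Per kilobase of exon, the median was 131.6 counts for the members and 0.893 for the genes facing them, and the member stood above its partner in 125 of 128 pairs. The members had to reach the floor of 50 mean counts and their partners did not, so the choice of members itself favours this gap, which is given as a description. In the other 3 pairs the known gene was higher: Glmn over 1700028K03Rik (17.9 against 17.6 counts per kilobase), B3gnt9 over D230025D16Rik (41.3 against 11.1), and Map3k12, a kinase of the JNK stress pathway, over Gm10337 (731 against 425). Gm20721 and Gnas show how far apart a pair could be. Gnas, the stimulatory G protein alpha subunit, had 42, 41 and 73 counts in the DMSO libraries and 65, 45 and 49 in the compound libraries, against 46636, 50897 and 85408 and 39995, 42379 and 44880 for Gm20721, of whose 1484 exon bases 1469 lie in Gnas exons. Per kilobase this was 34838 counts for Gm20721 and 4.69 for Gnas.

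**Figure D2:**
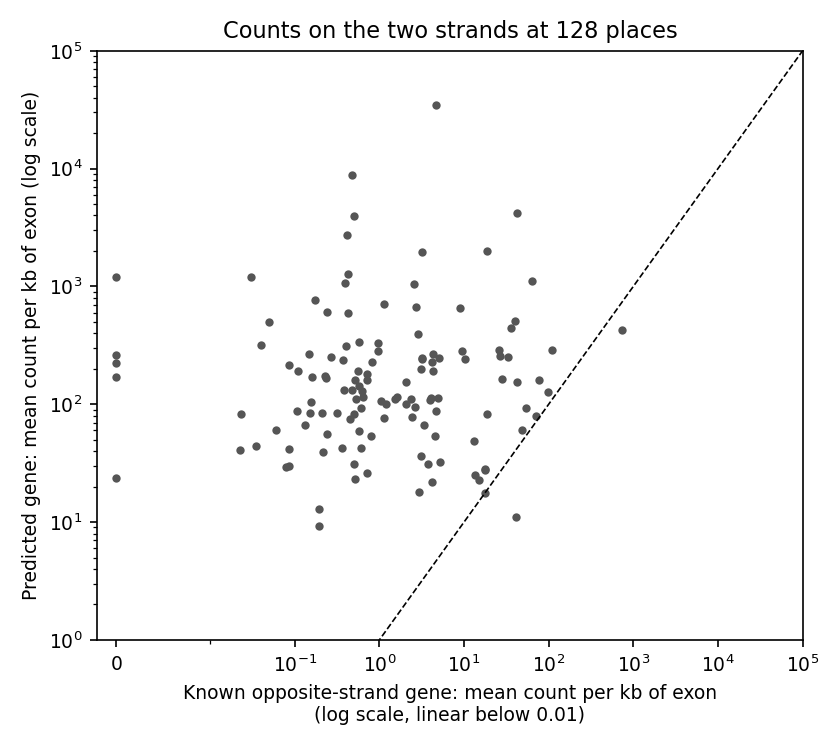
Mean count per kilobase of exon over the 6 libraries (log axes) for each member against the known gene on the opposite strand, for the 128 pairs in which that gene has a row. The axis of the known gene is linear near 0. Points above the dashed line of equality are pairs in which the member has more counts per kilobase, as in 125 of 128.

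With the compound, 8 of the 150 members (5.33%) rose and 32 (21.3%) fell at an adjusted p below 0.05 (edgeR's quasi-likelihood test, Benjamini-Hochberg adjustment over all 2440 genes tested), and 110 passed in neither direction. The share of all tested genes called was 7.5% higher (183 genes) and 10.5% lower (255), or 18% in either direction. Calls among members were thus below the background for rises and above it for falls. Of genes with other names at or above the same floor, 105 of 942 (11.1%) rose and 127 (13.5%) fell. The median log2 change was -0.22 for members (interquartile range -0.53 to 0.06, with 44 above and 106 below 0), 0.04 for those other genes and 0.02 for all tested genes. Groups did not overlap, with every compound library above or below every DMSO library, for 16 members (10.7%) on the higher and 59 (39.3%) on the lower side, against a background of 17.2% and 19.2%. The members were picked by name and by level, not by change, but with these results known and without 6 changed genes, so the counts are a description and carry no test of their own.

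Size and direction rest on scaling between libraries. TMM scaling, which assumes that most genes keep their level, raised every log2 change by 0.21 relative to plain CPM, counts scaled by library total alone, so a member with an equal share of counts in both groups is shown as higher by that much. DESeq2 size factors and upper-quartile scaling gave 8 and 11 members higher and 29 and 28 lower. The main run gave 8 and 32, beside 7.5% of all tested genes called higher and 10.5% lower. All 6 genes left out by name passed the test, 2 higher and 4 lower, as did 18 of 99 tested Gm and Rik genes below the floor, 3 higher and 15 lower. In the authors' deposited table, 9 members were higher and 44 lower at an adjusted p under 0.05, of the 149 that have one. The share called over all genes of that table was not counted, so these numbers have no background of their own.

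**Figure D3:**
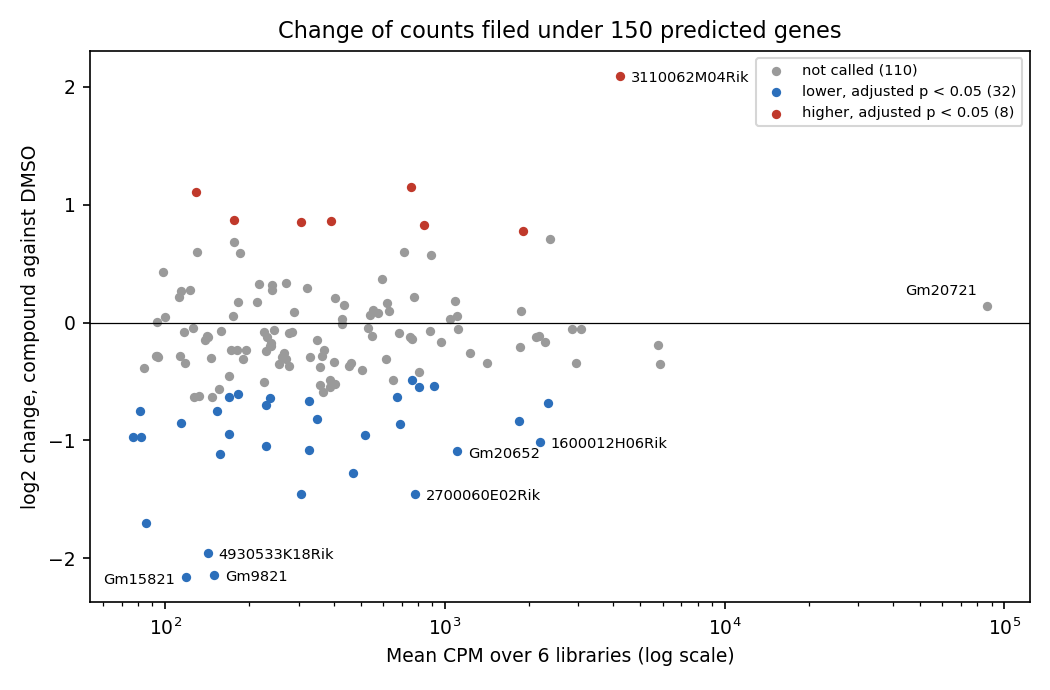
Log2 change (compound minus DMSO) of each of the 150 members against its mean level in CPM (scaled counts, log axis). Filled colours mark the 8 members that rose and the 32 that fell at an adjusted p under 0.05, grey the 110 that passed in neither direction. Most points lie below 0, and the largest changes in both directions are near a log2 value of 2.

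The largest rise was in 3110062M04Rik (chr6:34871771-34878060, minus strand), named Cyren in M21, a small protein known as a regulator of DNA end joining. It stood at 1800.2, 1931 and 1107 CPM (counts scaled to a common library size, with TMM factors over the tested genes) with DMSO and 6794, 6861 and 6952 with the compound. All 3 compound libraries were far above all DMSO libraries, and DMSO replicate 3 was the lowest. The log2 change was 2.09 ± 0.17 (SE, n = 3 per group), a 4.27-fold rise, with an adjusted p of 6.46e-07 by edgeR. Its exons share 2168 bases with Tmem140, a transmembrane protein gene on the plus strand. Tmem140's own counts went the other way: 295, 312 and 452 with DMSO and 106, 107 and 141 with the compound, a log2 change of -0.94 (adjusted p = 0.00181, edgeR). The counts filed on both strands of this place thus changed in opposite directions.

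Gm10874 (chr5:138363719-138388287, plus strand) lies across Got2-ps1, a processed pseudogene of mitochondrial aspartate aminotransferase, so its reads may also come from the parent gene or from other copies, and the value is uncertain. It stood at 1399.6, 1736 and 1076 CPM with DMSO and 2309.7, 2579 and 2332 with the compound. Compound libraries were all above the highest DMSO library, with a log2 change of 0.78 ± 0.16 (adjusted p = 0.00409, edgeR).

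A further 4 rises lay between log2 0.85 and 1.10. 3110002H16Rik, now Rmc1, a subunit of the Mon1-Ccz1 complex that acts on late endosomes, faces Npc1, the transporter that exports cholesterol from lysosomes. Its levels were 225, 210.1 and 216 CPM with DMSO and 412, 358 and 407 with the compound, with no overlap (log2 0.85 ± 0.17, adjusted p = 0.00311, edgeR). Counts under Npc1 itself rose as well, by log2 1.03 (adjusted p = 0.00251), the 1 pair of the 4 called on both sides in which both moved the same way. 1700020L24Rik faces Mmp28, a matrix metalloproteinase, and was at 251, 258 and 325 CPM with DMSO and 452, 487 and 581 with the compound. Here too the groups did not overlap (log2 0.86 ± 0.18, adjusted p = 0.00409).

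1700049G17Rik, now Zfp974, a zinc finger gene, faces the unnamed model Gm26891, and the nearest named coding gene is its relative Zfp607a. Zinc finger genes of 1 cluster are similar in sequence, so its counts are uncertain. It stood at 76.3, 66.2 and 99.8 CPM with DMSO and 196, 169 and 164 with the compound, which did not overlap (log2 1.10 ± 0.23, adjusted p = 0.00380, edgeR). 9130023H24Rik faces Armc5, an armadillo-repeat protein gene. Its libraries were at 104, 114 and 154 CPM with DMSO and 236, 235 and 216 with the compound, and although the groups did not overlap (log2 0.87 ± 0.21, adjusted p = 0.0103), the call was lost without DMSO replicate 1 (adjusted p = 0.0516), without DMSO replicate 2 (0.0583) and without compound replicate 2 (0.0505). The other 7 rises passed under every alternative run.

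**Figure D4:**
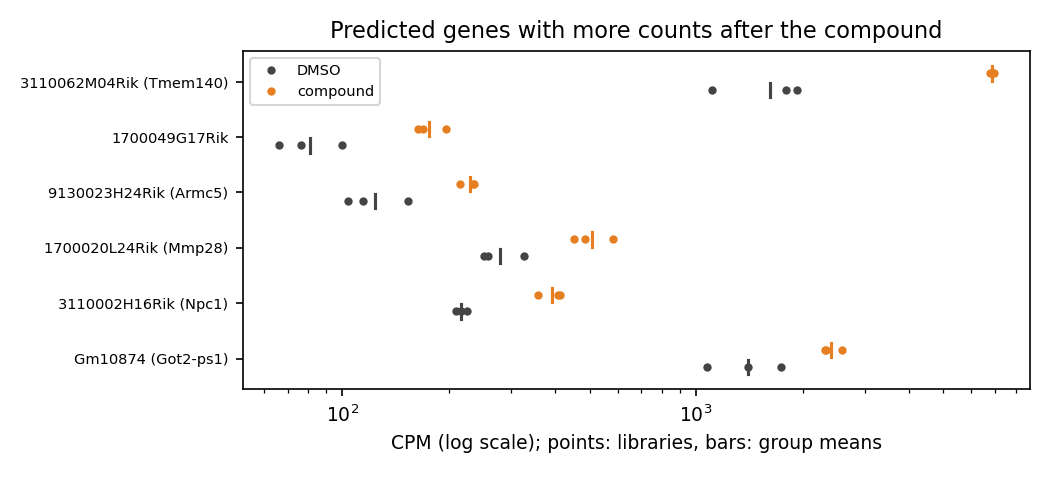
Levels in CPM (log axis) of 6 of the 8 members that rose, with the known gene at the place in brackets where one overlaps. Each point is 1 library, 3 with DMSO and 3 with the compound, and the bars are group means. In all 6 the compound libraries lie above the DMSO libraries, with the widest gap in 3110062M04Rik.

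The largest falls were in 4 members with few counts. Gm15821 (chr17:34211312-34214459, minus strand) faces Tap2 in the major histocompatibility region, a subunit of the transporter that loads peptides for MHC class I. It was at 170.0, 237 and 174 CPM with DMSO and 47.3, 46.5 and 35.3 with the compound. Every compound library was far below the lowest DMSO library, and the fall was 4.48-fold (log2 -2.16 ± 0.26, adjusted p = 3.77e-05, edgeR). Gm9821 (chr2:91945703-91947655, plus strand) faces Dgkz, a diacylglycerol kinase, an enzyme that ends diacylglycerol signals. Its levels were 209.8, 213 and 309 CPM with DMSO and 45.0, 52.9 and 68.5 with the compound, again far apart (log2 -2.14 ± 0.25, adjusted p = 3.88e-05).

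4930533K18Rik (chr10:70868669-70934324, plus strand) faces Bicc1, an RNA-binding protein of the Bicaudal-C family. It was at 219, 220.1 and 239 CPM with DMSO and 33.8, 59.2 and 80.9 with the compound. DMSO libraries were close together and compound libraries more widely spread, all of them lower (log2 -1.95 ± 0.27, adjusted p = 0.000132, edgeR). Gm17509 (chr13:117218701-117221075, minus strand) faces Emb, embigin, a surface glycoprotein and partner of lactate transporters, whose own counts were 0 in all libraries. It stood at 153, 132 and 108 CPM with DMSO and 27.0, 44.4 and 47.7 with the compound without overlap (log2 -1.70 ± 0.28, adjusted p = 0.000723).

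2700060E02Rik (chr14:19811402-19823823, minus strand), now Rtraf, part of the tRNA ligase complex, faces Nid2, nidogen 2 of the basement membrane. It was at 1067, 976 and 1401 CPM with DMSO and 437, 355 and 467 with the compound. The compound libraries lay at less than the lowest DMSO level throughout (log2 -1.45 ± 0.18, adjusted p = 5.25e-05, edgeR). Gm15401 faces Tcf7l1, a transcription factor of the Wnt pathway, and by a longer stretch the model Gm37969. It stood at 383, 442 and 518 CPM with DMSO and 196, 159 and 137 with the compound, without overlap (log2 -1.46 ± 0.20, adjusted p = 0.000137). Gm10197 faces Mxi1, an antagonist of Myc. Its levels of 408, 438 and 482 CPM with DMSO and 234, 220.0 and 174 with the compound did not overlap (log2 -1.08 ± 0.18, adjusted p = 0.000819).

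1600012H06Rik faces Phf10, a subunit of the BAF chromatin remodelling complex, and was the best counted of the 15 largest falls. It was at 2444, 2758 and 3585 CPM with DMSO and 1321, 1481 and 1552 with the compound (log2 -1.01 ± 0.15, adjusted p = 0.000352, edgeR). Its compound libraries were all below its lowest DMSO library. Gm17334 lies opposite Irf1, an interferon-regulated transcription factor. Its libraries stood at 262, 242 and 141 CPM with DMSO and 108, 106 and 80.9 with the compound (log2 -1.11 ± 0.26, adjusted p = 0.00853), with DMSO replicate 3 the lowest of its group and nearest to the compound libraries. Gm17305, which M21 does not hold, lies on exons of Chd3, a chromatin remodeller of the NuRD complex. It was at 538, 627 and 883 CPM with DMSO and 387, 353 and 317 with the compound with no overlap (log2 -0.96 ± 0.20, adjusted p = 0.00336).

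A further 3 members faced genes of signalling at the membrane and cytoskeleton. Gm10644 faces Adgrl1, the adhesion receptor latrophilin 1, and was at 586, 538 and 863 CPM with DMSO and 249.9, 224 and 349 with the compound. The groups stood apart, with DMSO replicate 3 the highest library (log2 -1.28 ± 0.22, adjusted p = 0.000891, edgeR). Gm20652 faces Arhgef2, a guanine nucleotide exchange factor bound to microtubules. It was at 1301, 1431 and 1787 CPM with DMSO and 673, 781 and 666 with the compound, the compound libraries all lower (log2 -1.09 ± 0.16, adjusted p = 0.000230). Gm9887 faces Arf6, a small GTPase of endosome recycling, and was at 291, 261 and 375 CPM with DMSO and 131, 182 and 139 with the compound, also without overlap (log2 -1.04 ± 0.21, adjusted p = 0.00338).

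The remaining named falls had few counts and calls that depended on single libraries. 4732440D04Rik faces Rb1cc1, a scaffold of the complex that starts autophagy, and was at 90.2, 103 and 112 CPM with DMSO and 42.8, 48.7 and 64.3 with the compound (log2 -0.97 ± 0.27, adjusted p = 0.0203, edgeR). The call was lost without DMSO replicate 2 (adjusted p = 0.0541), compound replicate 1 (0.0856) or compound replicate 2 (0.0802). E030037K01Rik faces Cdkn2aip, a protein that binds the tumour suppressor ARF, and was at 101, 114 and 109 CPM with DMSO and 67.5, 31.7 and 66.4 with the compound (log2 -0.97 ± 0.29, adjusted p = 0.0296). Compound replicate 2 was its lowest library, and the call was lost without it (adjusted p = 0.122), without DMSO replicate 2 (0.0801) or without compound replicate 1 (0.0578). The other 13 named falls passed under every alternative run.

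**Figure D5:**
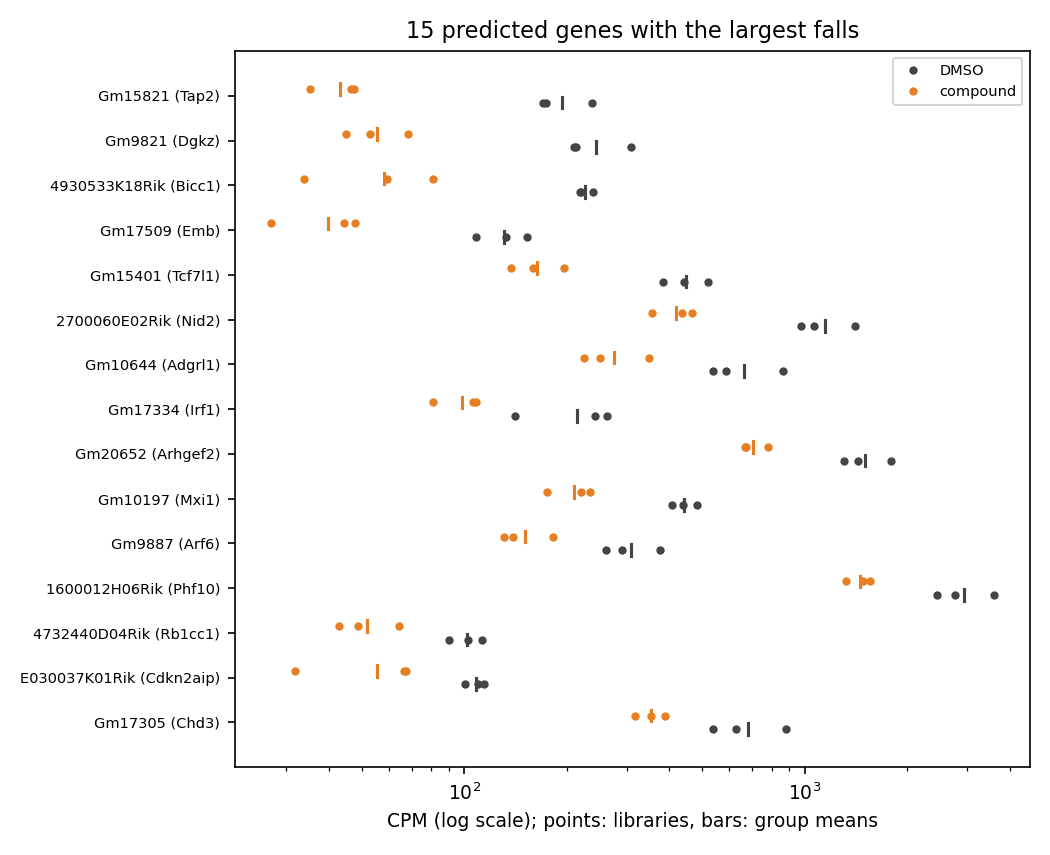
Levels in CPM (log axis) of the 15 members with the largest falls, with the known gene at the place in brackets. Each point is 1 library, 3 with DMSO and 3 with the compound, and the bars are group means. In all 15 the compound libraries lie below the DMSO libraries, by the widest margin in Gm15821 and Gm9821.

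The other 17 calls were all falls, of 1.40- to 1.92-fold (log2 -0.94 to -0.48, adjusted p 0.00101 to 0.0471 by edgeR), and 15 of them were lost under at least 1 alternative. Those that held under every alternative run were Gm26605 and B430305J03Rik. Gm26605 lies on exons of Mrfap1 and was at 2815, 2634 and 3164 CPM with DMSO and 1789.7, 1893 and 1691 with the compound (log2 -0.68 ± 0.13, adjusted p = 0.00197). Its compound libraries were all lower. B430305J03Rik faces Rap2b, a small GTPase of the Ras family, over 3702 bases, the longest shared stretch, and was at 2131, 2118 and 2822 CPM with DMSO and 1317, 1373 and 1272 with the compound, again with no overlap (log2 -0.84 ± 0.15, adjusted p = 0.00101).

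Of the 15 less stable falls, D930007J09Rik faces Wrnip1, a protein that guards DNA replication. It was at 208, 207 and 249.6 CPM with DMSO and 131, 144 and 72.6 with the compound (log2 -0.94 ± 0.25, adjusted p = 0.0159, edgeR). Counts under Wrnip1 moved the other way, from 12, 11 and 23 with DMSO to 53, 88 and 62 with the compound (log2 2.80, adjusted p = 1.09e-05). A like pair was 4931428F04Rik and Nol3, a repressor of apoptosis in muscle: the member fell (log2 -0.55 ± 0.15, adjusted p = 0.0198) and Nol3 rose by log2 0.50 (adjusted p = 0.0460). G430095P16Rik, opposite Nfix, a transcription factor of fetal muscle, was at 578, 664 and 1426 CPM with DMSO and 486, 480.2 and 506 with the compound, and DMSO replicate 3 was more than 2-fold above the other DMSO libraries (log2 -0.86 ± 0.26, adjusted p = 0.0340). G730046D07Rik lies on exons of Eif3c, a subunit of the translation initiation factor eIF3, and counts under Eif3c fell too (log2 -1.89 against -0.54 for the member). The other 11 lie at Snx14 (4932427H20Rik), Ppp1r15b (Gm26616), Mkrn1 (Gm10244), Riox1 (Gm26571), Borcs6 (9330160F10Rik), Mettl9 (Gm9905), Ciart (C920021L13Rik), Nfkbil1 (Gm16181), Atxn7l3b (Gm26596), Mypop (Gm10676) and Golph3 (1810049J17Rik).

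In 49 of the 131 pairs the known gene also had counts enough to be tested, and in 4 pairs both sides passed: the pairs at Tmem140, Npc1, Wrnip1 and Nol3. In 3 of these 4 the directions were opposite, and at Npc1 they were the same. Counts under 4 more known genes passed while those of the member did not: Arfgap2 fell (log2 -1.56, member 1110051M20Rik -0.13), and Kif3c (log2 0.70, member 1110002L01Rik 0.07), Bag4 (log2 1.03, member Gm17484 0.15) and Drap1 (log2 1.28, member 4930481A15Rik -0.23) rose. Over all tested genes, 7.5% were called higher and 10.5% lower, or 18% in either direction. Whether the change differed between the genes of a pair was not tested, nor was any pattern of direction among the pairs.

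Of the 10 members with the highest mean level, 3110062M04Rik rose and Gm26605 fell, as described above, and the other 8 did not pass the test. Gm20721 (chr2:174330319-174346712, minus strand), opposite Gnas, was at 80881, 84216 and 81993 CPM with DMSO and 90036, 89657 and 93112 with the compound. Compound libraries were all higher on this scale, by log2 0.14 ± 0.07, less than the shift that TMM scaling adds, and the test was not passed (adjusted p = 0.180, edgeR). Without DMSO replicate 3 the value was 0.13 and passed (adjusted p = 0.0262). Gm11175, opposite Jund, an AP-1 transcription factor, was at 6339, 5725 and 7664 CPM with DMSO and 4928, 5460.3 and 5054 with the compound. Its compound libraries were lower, but the adjusted p was 0.0645 (log2 -0.35 ± 0.13). It passed with no filter on low counts (0.0444), without DMSO replicate 2 (0.0358) and, at log2 -0.24, without DMSO replicate 3 (0.00994).

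1700022I11Rik, opposite Vcp, an ATPase that extracts proteins for degradation, was at 6037, 6528 and 5894 CPM with DMSO and 5466, 5293 and 5371 with the compound. The gap was narrow (log2 -0.19 ± 0.11, adjusted p = 0.245, edgeR, and 0.00804 without DMSO replicate 3). Gm9754, opposite Fbxw8, a ubiquitin ligase subunit, stood at 3111, 3394 and 3346 CPM with DMSO and 2467, 2564 and 2755 with the compound, the compound libraries all lower (log2 -0.34 ± 0.12, adjusted p = 0.0650). It passed with a floor of 50 mean counts (0.0457) and without DMSO replicate 3 (0.000982). Gm11149 opposite Ncam1, the neural cell adhesion molecule that myoblasts also carry, was at 2612, 2975 and 3822 CPM with DMSO and 3169.7, 2930.1 and 2944 with the compound with overlapping groups (log2 -0.06 ± 0.14, adjusted p = 0.816).

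9130221H12Rik, opposite Gsk3a, a kinase of glycogen synthesis, was at 2700.3, 2775 and 3205 CPM with DMSO and 2919.8, 2575 and 2869 with the compound. The groups overlapped (log2 -0.05 ± 0.13, adjusted p = 0.806, edgeR). Gm5577, opposite the linker histone gene H1fx and Rab7, a GTPase of late endosomes, was at 2438, 2591 and 2215 CPM with DMSO and 2337, 2118 and 1989.6 with the compound, also overlapping (log2 -0.17 ± 0.13, adjusted p = 0.416, and log2 -0.24 with 0.0313 without DMSO replicate 3). Gm5148 lies across Rps23-ps1, a pseudogene of a ribosomal protein with many near-identical copies, so its counts are uncertain. It was at 2357, 2225 and 815 CPM with DMSO and 2999, 2905 and 2909 with the compound, and DMSO replicate 3 was far below all other libraries. The log2 change was 0.71 ± 0.27 (adjusted p = 0.0814). It passed with upper-quartile scaling (0.0364), with no filter (0.00346), with a replicate block (0.00359), without DMSO replicate 1 (0.0245) and without DMSO replicate 3, where the change was 0.35 (0.000538).

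Closest to no change among members with at least 200 mean counts were B930078G14Rik on exons of Arglu1, a splicing coactivator (log2 -0.01 ± 0.16, adjusted p = 0.963, edgeR), 1110008P14Rik opposite Ciz1, a nuclear matrix protein (log2 0.03 ± 0.15, adjusted p = 0.911), and 4930535I16Rik opposite Rragc, a GTPase that carries amino acid signals to mTOR (log2 0.03 ± 0.18, adjusted p = 0.926). For the 110 members that were not called, the log2 change ran from -0.63 to 0.71 and its SE from 0.07 to 0.31 with a median of 0.19. At the floor, the members just inside were 4732440D04Rik (mean count 50.7), D230025D16Rik (52.0) and Gm26571 (52.3), and the genes just outside Gm10767 (49.5), Gm5901 (48.8) and Gm5475 (48.3).

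The counts by class that follow stand beside a background of 7.5% of all tested genes called higher and 10.5% lower. Ordered by what the gene at the place does, 20 members lay at genes of signalling, of which 0 rose and 5 fell (at Dgkz, Adgrl1, Arhgef2, Rap2b and Ppp1r15b). The other 15, at log2 -0.45 to 0.68, included members at Gnas, Gsk3a, Dyrk2 (4932442E05Rik), Arhgap23 (4933428G20Rik), Phkg2 (Gm166), Rragc, Mapk8ip1 (1700029I15Rik), Dapk3 (4930442H23Rik), Gna13 (Gm11696), Gng12 (4930597O21Rik), Cdk6 (Gm17590), Ppp2r3c (1110008L16Rik), Dusp12 (Gm26620) and Map3k12 (Gm10337). Gna13 and Gng12 are subunits of G proteins. Genes of transcription and chromatin were met by 21 members, 0 of which rose and 9 fell (at Phf10, Nfix, Chd3, Tcf7l1, Mxi1, Irf1, Mypop, Riox1 and Ciart). The 12 not called ran from log2 -0.63 to 0.29 and lay at Jund, H1fx, Supt20 (Gm21958), Mtf1 (1110065P20Rik), Drap1, Tbx18 (D030062O11Rik), Brf1 (9230104M06Rik), Hoxa3 (5730596B20Rik), Polr3gl (Gm16253), Ssu72 (1500002C15Rik), Cebpz (1110001A16Rik) and Xist (Gm26992), the RNA that silences an X chromosome. Gm26992 also shares exon bases with genes on its own strand, 431 with Tsix and 37 with Tsx. These classes were drawn up with the values known, and no test was made on them.

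The background remains 7.5% higher and 10.5% lower. Membrane traffic, the movement of proteins and lipids between compartments, was represented by 14 members, with 1 rise (at Npc1) and 4 falls (at Golph3, Borcs6, Arf6 and Snx14). The 9 not called, at log2 -0.55 to 0.60, lay at Arfgap2, Micall1 (1700088E04Rik), Sec62 (4933429H19Rik), Scap (5830462I19Rik), Yif1b (2200002D01Rik), Gorasp2 (Gm26558), Arf4 (4930570N19Rik), Zfyve9 (3110021N24Rik) and Gopc (Gm26741). Scap is the escort of the sterol-sensing factor SREBP. Genes that tag, fold or clear proteins were met by 13, with 1 rise and 2 falls (at Mkrn1 and Rb1cc1). The other 10, at log2 -0.34 to 0.27, lay at Vcp, Fbxw8, Klhl9 (Gm26566), Mindy2 (Gm10642), Fbxo3 (4931422A03Rik), Herc4 (1700120B22Rik), Ubr7 (Gm20604), Bag4, Hspa1a (Gm20481) and Nudcd3 (A730071L15Rik). Hspa1a is an inducible heat shock protein and has a near-identical neighbour, so the counts opposite it are uncertain.

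Genes of RNA processing and translation faced or underlay 12 members, with 1 rise and 2 falls (at Bicc1 and Eif3c), where 18% of all tested genes were called in either direction, 7.5% higher and 10.5% lower. The 9 not called, at log2 -0.52 to 0.21, lay at Acin1 (Gm17606 and 1700123O20Rik, on the same gene), Cherp (1700030K09Rik), Arglu1, Hnrnpf (4933440N22Rik), Pes1 (4930556J24Rik), Mrps30 (B430218F22Rik), Snrpf (4933408J17Rik) and Supv3l1 (4930507D05Rik). Of 10 members at genes of the matrix, the cell surface and peptide loading for MHC class I (Tap2 only), 1 rose (at Mmp28). In this class 3 fell (at Nid2, Tap2 and Emb). The other 6, at log2 -0.63 to 0.37, lay at Ncam1, Matn2 (9430069I07Rik), Fbn1 (Gm9913), Nptn (2410076I21Rik), Cd276 (Gm10657) and Ano6 (A130051J06Rik). Fbn1 encodes fibrillin of elastic microfibrils, and Ano6 a lipid scramblase. No member passed at the 6 genes of cytoskeleton and cilia, which were Slain2 (Gm10135), Cep250 (6430550D23Rik), Kif3c, Nav1 (Gm4793), Cep290 (4930430F08Rik) and Kif7 (9330171B17Rik), with log2 changes of -0.35 to 0.07 in edgeR's test. None passed at the 8 genes of metabolism and mitochondria either: Glul (5830403L16Rik), Slc25a46 (B930094E09Rik), Sdhaf1 (E130208F15Rik), Sdhaf4 (Gm26524), Nudt5 (Gm13199), Chkb (C730034F03Rik), Me1 (A330041J22Rik) and Ampd2 (Gm12500), at log2 -0.53 to 0.59.

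For 37 members the gene at the place belonged to none of these classes, and 3 of them rose and 7 fell, beside 7.5% and 10.5% of all tested genes. The 27 not called, at log2 -0.63 to 0.71, lay at R3hdm4 (Gm26602), Lsp1 (Gm14492), Sppl3 (Gm10401), Szrd1 (4921514A10Rik), Naa60 (1700037C18Rik), Ciz1, Alkbh1 (2700073G19Rik), Mfsd12 (4930404N11Rik), Knop1 (9030624J02Rik), Zfp346 (Gm17617), Sidt2 (A830035O19Rik), Capn15 (D630044L22Rik), Ifrd1 (Gm7008), Cc2d1b (Gm20731), Kti12 (A730015C16Rik), Ildr2 (5330438I03Rik), Fdxacb1 (1110032A03Rik), Glmn, Dnajc17 (Gm14137), Cercam (2600006K01Rik), Nrbp1 (Gm9970), Zfp800 (6530409C15Rik), Smim13 (Gm17364), Tiparp (4931440P22Rik), Ptms (A230083G16Rik), B3gnt9 (D230025D16Rik) and Rps23-ps1. Gm17617 has only 39 exon bases in M21, all inside Zfp346, and held 322, 340 and 587 counts with DMSO and 261, 278 and 292 with the compound. Gm17364 (72 bases, in Smim13) and Gm26741 (87 bases, in Gopc) are also shorter than 100 bases.

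The last 9 members had no named gene across their exons or body. Of these 1 rose (1700049G17Rik) and 0 fell, beside 7.5% of all tested genes called higher and 10.5% lower. The 8 not called lay nearest to Mttp (Gm5105 and 1110002E22Rik), Tnn (4930562F07Rik), H2-T3 (2410017I17Rik), Hmga1 (C130040N14Rik), Marcks (5930403N24Rik), Mylk3 (1700051O22Rik) and Plekhn1 (2310042D19Rik). The last of these is now Perm1, a regulator of muscle metabolism, and its mean count was 57.0. Gm5105 and 1110002E22Rik face each other over 465 bases and so form a pair in which both genes are members. Gm5105 was at 293, 458 and 570.2 CPM with DMSO and 356, 294 and 232 with the compound (log2 -0.59 ± 0.23, adjusted p = 0.0962, edgeR), and 1110002E22Rik was at 238, 210.1 and 269 CPM with DMSO and 295, 362 and 251 with the compound (log2 0.34 ± 0.20, adjusted p = 0.270). Their changes pointed in opposite directions, but neither passed and in both the groups overlapped.

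The calls can also be split by other properties of the members, with the background of 7.5% higher and 10.5% lower. Of 34 members for which the table names a human ortholog, 6 rose and 3 fell, and of 116 without one 2 rose and 29 fell. Of 84 that M21 calls protein-coding 7 rose and 14 fell, of 36 antisense 0 rose and 9 fell, and of 12 TEC 0 rose and 4 fell. By kind of name, which was part of the rule that chose them, Gm names held 2 rises and 18 falls in 59 members, Rik names 6 and 14 in 91. Of 37 members whose exons were covered to at least 50% by the opposite gene, 2 rose and 6 fell. These splits overlap each other, were looked at with the results in hand, and were not tested. The members lay on 20 chromosomes, with at most 13 on any of them.

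DMSO replicate 3 stood apart for some members. Against the mean of DMSO replicates 1 and 2, the median log2 difference was 0.07 over members and 0.00 over all tested genes, and members ranged from -1.49 to 1.20. It was above both others for 75 members, below both for 54 and between them for 21. Above by at least 2-fold was G430095P16Rik (Nfix), and below by as much were Gm5148, 2700073G19Rik, C130040N14Rik, 4933408J17Rik, Gm26524 and 1700051O22Rik. 2700073G19Rik, on exons of Alkbh1 and of Slirp, a mitochondrial RNA-binding protein gene, was at 931, 898 and 326 CPM with DMSO and 1058, 1049 and 1077 with the compound. DMSO replicate 3 was the single low library there. The coefficient of variation had a median of 14.6% in DMSO and 10.1% in compound libraries, and was larger in DMSO for 95 members. Without DMSO replicate 3, 13 members rose and 46 fell, and over all 2549 genes tested in that run 259 rose and 359 fell, also more than with all libraries.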

How the data were processed

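Reads were aligned and counted with STAR 2.3.0e and HTSeq 0.6.0 on the mm10 build, per the submitters' processing notes. How strand was set in the counting, and which annotation release was used, is not given in the sources used here. A single table was deposited by the authors, with 24725 rows and raw counts per gene and library, which were the input to every test. Repeated identifiers were used once, leaving 22753. Per the file headers and values, the deposited normalised signal is the count divided by 1 size factor per library, and the authors also deposited DESeq2 log2 fold changes, a Wald score and p-values. Of these only the adjusted p-values were used, for the counts attributed to the authors' deposited table.

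The main test was edgeR's two-sided quasi-likelihood F test (version 4.0.16 in R 4.3.3), after filterByExpr with the groups and TMM scaling. Its p-values were adjusted by Benjamini-Hochberg over 2440 genes, with a threshold of 0.05. CPM use library sizes after TMM, summed over the tested genes, and a standard error is the size of the log2 change over the root of its F statistic. Library totals ran from 493406 to 952813 counts, and intervals of shares cover counting error only. Members were placed on GENCODE M21 (GRCm38), by identifier or by name and place, and exons were intersected by strand. The known gene is the one with the longest exon overlap on the opposite strand, else on the span, else the gene body, else the nearest coding gene. Mean counts per kilobase use the union of a gene's exons. These exons are those of M21, which can differ from the models that were counted. For example, 4732440D04Rik has 5428 exon bases in M21 but spans only chr1:6214612-6215292 in the deposited data. Counts per kilobase and covered shares of such members may thus not be those of the counted model.

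The members, lists and tests were chosen with earlier results of these data known. Named were the rises, the 15 largest falls, the 10 members with highest mean CPM, Gm20721, those at the floor and the 3 nearest to 0 with at least 200 mean counts. Other called members were added as named, after their values were seen. Some members that the rule names are not reported here. Classes of known genes were drawn up by hand. In simulated data for the comparison of compound with DMSO, with 2435 genes tested, 62% of 2-fold and 98.9% of 4-fold changes were recovered, and 4 of 151 calls were false. Runs with other choices used DESeq2 1.42.0, limma-voom (limma 3.58.1), the size factors of DESeq2, upper-quartile scaling, all genes without a filter, only genes with 50 mean counts or more, a replicate block, and 5 of the 6 libraries. Joins and intervals were made in Python 3.11.15 with scipy 1.17.1, pandas 2.3.3 and numpy 2.4.6, and figures with matplotlib 3.10.9.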

Additional observations from a re-analysis of the deposited data

How the results depend on the processing

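No named call changed direction under any alternative run. The median log2 change over all tested genes, 0.02, lay between -0.15 and 0.04 and was below 0 with no filter, with the floor of 50 mean counts and in 5 of the 6 runs that left out a library. With DESeq2, limma-voom, DESeq2 size factors, upper-quartile scaling, no filter and a mean count of at least 50, 8 to 11 members were higher and 28 to 36 lower, against 8 and 32. Leaving out 1 library at a time gave 7 to 13 members higher and 15 to 46 lower, the fewest falls without compound replicate 1 (15), 2 (17) or 3 (18), and most without DMSO replicate 3. Over all tested genes these runs gave 93 to 259 higher (93, 103 and 109 without compound replicates 1, 2 and 3, and 114 without DMSO replicate 2) and 143 to 359 lower (143 and 151 without compound replicates 1 and 2). Of the calls, 7 of 8 rises and 15 of 32 falls remained in every setting. Whether replicate numbers pair the samples is not known. Deviations of same-numbered samples correlated at -0.0108, 0.0234 and 0.0184. Deviations centred within groups of 3 balance around 0, so these values cannot decide it. A fit with the replicate number as a block gave 12 members higher and 29 lower. The members' shares of counts without Gm20721 were 9.73%, 10.0368% and 11.3% with DMSO and 8.34%, 8.62% and 8.08% with the compound, and as shares of the tested genes' counts the compound values were 16.9702%, 17.37% and 16.8319%. The causes of these differences were not tested. With 3 samples a group and totals of at most 952813 counts, an uncalled member may have changed. In simulation 62% of 2-fold changes were recovered, over genes drawn from all that were tested. Of the 2440 tested genes only 1098 reached the floor of 50 mean counts. All members reach it, so the 62% was not measured for members. For uncalled members the SE of the log2 change had a median of 0.19 and reached 0.31.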

Other observations

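Some Gm and Rik genes below the floor, F930015N05Rik, Gm9920 and 2210010C04Rik, held larger falls than any member. The genes named here were picked after their values were seen. Of the 99 Gm and Rik genes below the floor that were tested, 3 rose and 15 fell. These 18 calls were close to the share of 18% over all tested genes (7.5% higher and 10.5% lower). F930015N05Rik held 15, 21 and 46 counts with DMSO and 1, 1 and 2 with the compound (adjusted p = 0.000725, edgeR), too few for a firm fold change. Gm9920 stood at 69.4, 111 and 118 CPM with DMSO and 6.75, 16.9 and 8.3 with the compound (log2 -3.20 ± 0.40, adjusted p = 6.68e-05, edgeR), with no overlap between the groups. 2210010C04Rik was at 46.8, 61.2 and 49.9 CPM with DMSO and 2.25, 12.7 and 6.22 with the compound (log2 -2.85 ± 0.50, adjusted p = 0.00101, edgeR) and 9330154J02Rik at 65.9, 81.1 and 89.3 CPM with DMSO and 13.5, 23.3 and 18.7 with the compound (log2 -2.08 ± 0.35, adjusted p = 0.000723, edgeR). The rises were 2700081O15Rik at 17.3, 34.7 and 15.4 CPM with DMSO and 83.3, 33.8 and 51.9 with the compound (log2 1.35 ± 0.44, adjusted p = 0.0452, edgeR), where DMSO replicate 2 lay above compound replicate 2, 9030025P20Rik at 31.2, 39.7 and 30.7 CPM with DMSO and 76.5, 69.8 and 76.8 with the compound (log2 1.14 ± 0.30, adjusted p = 0.0167, edgeR) and 9930012K11Rik at 17.3, 31.4 and 29.8 CPM with DMSO and 49.5, 55.0 and 62.2 with the compound (log2 1.06 ± 0.35, adjusted p = 0.0490, edgeR). At these counts a few reads decide a fold change.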
